A study of Mus musculus with 9 samples.

Results

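Mitochondrial ribosomal protein genes were taken as all genes whose symbol starts with Mrpl or Mrps followed by a digit, the names of the large and small subunit proteins of the mitochondrial ribosome. The array named 71 such genes on 80 of its 26423 probes. For each gene the brightest probe over the 9 samples was used, and 69 of the 71 genes, from a table of 18295 genes with a usable probe, had a value above 0 in all samples. The other two, Mrps16 and Mrps25, lay near or below 0 in every sample and were not tested. Of the 78 protein-coding mouse genes that RefSeq lists under such symbols, 7 were not named on the array (Mrpl23, Mrpl30, Mrpl32, Mrpl47, Mrps5, Mrps21 and Mrps26).

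RNA came from primary knee chondrocytes of newborn Kunming mice, freed from articular cartilage by collagenase and read on a single-colour (Cy5) oligonucleotide array in 9 samples. The 3 stiff ECM samples were grown on polyacrylamide gel of 100 kPa and the 3 soft ECM samples on gel of 500 Pa, both coated with type I collagen per the study's methods. No source used here says on what the 3 normal samples were grown, so a difference between a gel and normal can hold more than stiffness. All 9 carry a label of 24 h, whereas a legend of the study gives a later time. The labels number the replicates without saying whether each came from a separate animal or culture.

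Mitochondria keep a small genome whose messages encode core subunits of the respiratory chain and ATP synthase, and the mitochondrial ribosome translates only these. All of its proteins are encoded in the nucleus, made in the cytosol and imported. Some descend from bacterial ribosomal proteins and others are found only in mitochondria, and they surround ribosomal RNAs that are much shorter than the bacterial ones. Of the 69 genes, 47 encode large subunit proteins, counting Mrps18a and Mrps30, whose products sit there despite their names, and 21 encode small subunit proteins. Mrps36 carries a ribosomal name, but its product is now known as a part of the 2-oxoglutarate dehydrogenase complex.

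Promoters of nuclear genes for mitochondrial proteins are known for sites of ETS family factors such as GABP, of NRF1 and of YY1. RefSeq start regions on GRCm38.p6, running 250 bases before to 50 after each start, were at hand for 60 of the 69 genes, as 65 entries. The letters CCGGAAG, the core of an ETS site, stood on either strand in 23 of the 65 entries (35.4%), against 8.86% of the 32851 entries of all genes. The NRF1 letters, GCGCA and GCGC with any base between them, stood in 9 of 65 (13.8%), against 4.60% of all entries, and the YY1 letters AAGATGGCG in 8 of 65 (12.3%), against 1.40%. CCAAT was found in 38.5% of member entries and 37.4% of all, and TATAAA in 7.69% and 13.6%. The sequences that follow are the start regions of 4 genes that passed the test in at least 1 comparison, a pair with lower and a pair with higher signal on stiff ECM than in normal. Of the 10 genes that passed, 8 have an entry, and the ETS letters stood in an entry of 6 of these, whereas Mrpl24 and Mrps9 lack them. The 4 shown were picked by hand, and 3 of their entries hold the letters. Capitals mark CCGGAAG, its reverse complement CTTCCGG and, in Mrpl57, the NRF1 letters, and no marked stretches overlap. Mrpl48 has 4 entries, and the printed one lies at the 5′ end of the gene as RefSeq places it and holds none of the marked motifs. The ETS letters were found only in another of its entries, which belongs to a start inside the gene. The only entry of Mrpl18 also starts inside the outer end of its gene. A match is a description of the letters and not of a bound factor.
Mrpl48, chr7:100608252-100608551, minus strand: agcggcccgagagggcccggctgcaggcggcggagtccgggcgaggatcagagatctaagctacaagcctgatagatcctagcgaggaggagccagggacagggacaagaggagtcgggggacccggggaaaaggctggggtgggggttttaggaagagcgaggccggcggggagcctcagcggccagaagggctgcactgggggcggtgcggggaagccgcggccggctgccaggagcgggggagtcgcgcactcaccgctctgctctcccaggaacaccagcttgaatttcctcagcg
Mrpl57, chr14:57825989-57826288, plus strand: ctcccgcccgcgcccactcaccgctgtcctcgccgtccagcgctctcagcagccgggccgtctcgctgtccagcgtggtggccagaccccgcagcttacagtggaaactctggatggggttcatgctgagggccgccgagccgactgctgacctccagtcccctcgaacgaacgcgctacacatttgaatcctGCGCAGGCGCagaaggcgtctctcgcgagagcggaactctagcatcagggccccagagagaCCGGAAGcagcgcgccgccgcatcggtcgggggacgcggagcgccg
Mrpl18, chr17:12916042-12916341, minus strand: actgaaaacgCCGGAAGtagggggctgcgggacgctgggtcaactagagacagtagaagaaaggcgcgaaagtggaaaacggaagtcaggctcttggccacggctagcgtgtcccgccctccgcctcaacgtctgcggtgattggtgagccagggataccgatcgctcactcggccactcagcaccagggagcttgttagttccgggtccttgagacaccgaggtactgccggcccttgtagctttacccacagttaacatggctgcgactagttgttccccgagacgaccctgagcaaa
Mrpl21, chr19:3282792-3283091, plus strand: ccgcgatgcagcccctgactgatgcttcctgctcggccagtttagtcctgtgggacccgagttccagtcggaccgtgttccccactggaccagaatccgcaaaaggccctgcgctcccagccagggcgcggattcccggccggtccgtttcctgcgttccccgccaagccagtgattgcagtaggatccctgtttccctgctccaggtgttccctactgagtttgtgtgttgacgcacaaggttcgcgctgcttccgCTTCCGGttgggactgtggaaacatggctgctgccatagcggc

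The values are normalized probe intensities on a linear scale, so a level can be compared between samples for the same probe but not between probes. Over all 24942 tested probes the median mean intensity was 189, and over the 69 genes it was 3936, with a range of 95.1 to 16000.4. Probes of olfactory receptor genes, which chondrocytes are not known to use, served as a gauge of background, and 60 of the 69 genes were brighter than the 95th percentile of 465 such probes (327). The other 9, Mrpl1, Mrpl15, Mrpl17, Mrpl19, Mrpl21, Mrpl35, Mrpl45, Mrps14 and Mrps33, were at or below it, and their values may be largely background. Of 10 chondrocyte markers 7 were above that percentile, namely Col2a1, Acan, Sox9, Comp, Hapln1, Col9a1 and Col11a1. Matn1, Matn3 and Cnmd did not reach it. The summed signal of 10 chondrocyte markers was 7647 to 8756 on stiff ECM, 6878 to 8235 on soft ECM and 15068 to 17218 in normal. Much of this sum came from Col2a1, at 3505 to 4092 on stiff ECM, 3304 to 3963 on soft ECM and 8720 to 11070.0 in normal. Sox9 overlapped between all 3 groups, at 612 to 739, 621 to 736 and 628 to 815 in the same order. All 10 skeletal muscle markers lay above the percentile, and their sum was 162043 to 175198 on stiff ECM, 219139 to 236657 on soft ECM and 222280 to 258066 in normal. The 5 fibroblast markers summed to 37062 to 40939 on stiff ECM, 39228 to 41483 on soft ECM and 48056 to 60332 in normal. Of 5 macrophage markers 3 were above the percentile, with sums of 6736 to 7467 on stiff ECM, 6500.4 to 7499 on soft ECM and 7157 to 8947 in normal, and none of 4 endothelial markers was. Single markers differed from their sums. Pdgfra of the fibroblast list overlapped between all 3 groups. Itgam of the macrophage list was higher on stiff ECM (453 to 497) than in normal (290 to 349). The part of such differences in the results that follow was not tested, and in bulk RNA fewer cells of a type and less RNA per cell cannot be told apart.

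The comparison of stiff ECM with soft ECM asks what the modulus of the gel changed. In this comparison signal of most mitochondrial ribosomal protein genes was slightly lower on stiff ECM. The log2 fold change, stiff ECM minus soft ECM, was below 0 for 54 of 69 genes with a median of -0.18, while over all tested probes the median was 0.18. Mrpl48 and Mrpl4 passed the test (limma, Benjamini-Hochberg adjusted p under 0.05 over all 24942 probes), both lower, and none passed as higher. Of all probes 0.417% passed as lower and 1.35% as higher. At an unadjusted p under 0.05, 20 of the genes (29.0%) were lower and 3 (4.35%) higher, against 4.12% and 17.5% of all probes and 7.23% and 16.6% of the 6073 probes that were among the 200 nearest in intensity to any member. Each of these pooled nearest probes counts once, so the pool does not follow the members' own spread of intensity. Its median log2 fold change was 0.06, while matching gene by gene, given below, had -0.01. The passing counts move with the scaling of the arrays. As lower, 8 members passed under quantile normalization, 6 under loess and 16 under median centring, where the median was -0.43. None passed in a Student's t-test on the log2 values after adjustment. That test comes from the study's general statistics and is not the model it used for its arrays. Over all probes 337 passed as higher and 104 as lower, but 469 and 700 under quantile normalization. The 3 stiff ECM values lay wholly below the 3 soft ECM values in 27 of the 69 genes (39.1%) and wholly above them in 4 (5.80%), against 6.39% and 31.7% of all probes. With soft ECM replicate 3 or stiff ECM replicate 2 left out, no member passed, and without stiff ECM replicate 2 no probe of the array did (3255 probes of the array then had an unadjusted p under 0.05).

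Mrpl48, a mitochondria-specific protein of the large subunit that lies in its central protuberance in human structures, showed the lowest fold change of the 69. Mrpl48 measured 2623, 2281 and 2634 on stiff ECM, against 3955, 3891 and 4111 on soft ECM and 4053, 3807 and 3868 in normal. The stiff ECM samples were below all 6 others, and soft ECM and normal overlapped. The log2 fold change was -0.67 (SE 0.09, adjusted p = 0.012) against soft ECM and -0.64 (SE 0.09, adjusted p = 0.0048) against normal. A dimmer probe of the gene pointed the same way, at -0.54 (SE 0.15, adjusted p = 0.0904) and -0.60 (SE 0.15, adjusted p = 0.0365). RefSeq also lists a pseudogene named Mrpl48-ps, whose transcript, if made, a probe might bind as well.

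Mrpl4 encodes uL4m, whose bacterial counterpart lines the tunnel through which the new peptide leaves the ribosome. The stiff ECM samples of Mrpl4 read 1857, 1553 and 1704, the soft ECM samples 2711, 2389 and 2564 and the normal samples 2609, 2101 and 2687. Again every stiff ECM value was below all 6 others. The log2 fold change was -0.59 (SE 0.12, adjusted p = 0.0385) against soft ECM and -0.53 (SE 0.12, adjusted p = 0.0235) against normal.

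Several further proteins of the bacterial core of the large subunit had like values without passing the test against soft ECM. Mrpl33 was the brightest of the 69 probes. For Mrpl33 the probe gave 13844, 13811 and 11579.9 on stiff ECM, 18722, 16680.0 and 19018 on soft ECM and 17824, 14349 and 18175 in normal. Its stiff ECM samples lay below the other groups, with a log2 fold change of -0.47 (SE 0.12, adjusted p = 0.0632) against soft ECM. Mrpl27, whose bacterial counterpart reaches with its tail towards the peptidyl transferase centre, read -0.40 (SE 0.17, adjusted p = 0.212). Intensities were 3382, 3467 and 2283 on stiff ECM, 3866, 3606 and 4442 on soft ECM and 4291, 3399.6 and 4722 in normal. The low value of stiff ECM replicate 3 stood apart from the other two. Mrpl22, the neighbour of uL4 along the exit tunnel in bacteria, read -0.38 (SE 0.13, adjusted p = 0.127), and Mrpl2, whose bacterial counterpart is needed for peptide bond formation, read -0.36 (SE 0.12, adjusted p = 0.124). In both genes the stiff ECM and soft ECM samples did not overlap. Large subunit proteins listed as mitochondria-specific stood at the same level. Among them were Mrpl40 at -0.37 (SE 0.14, adjusted p = 0.163) and Mrpl57 at -0.36 (SE 0.10, adjusted p = 0.0824).

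Mrpl41, a mitochondria-specific large subunit protein, varied more between replicates than Mrpl48 or Mrpl4. Mrpl41 measured 3495, 3493 and 2909 on stiff ECM, against 4934, 3454 and 4644 on soft ECM and 3397, 3400.5 and 4954 in normal. The groups overlapped, since soft ECM replicate 2 read below 2 of the stiff ECM samples, and the log2 fold change against soft ECM was -0.39 (SE 0.17, adjusted p = 0.229). Its second probe, at background with a mean of 89.4, read 1.03 (SE 0.40, adjusted p = 0.179), with stiff ECM replicate 2 at 242 and the other 8 samples between 47.1 and 102.

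The genes at the upper end of the comparison with soft ECM were Mrpl21, Mrps18c, Mrpl19 and Mrpl18, and none passed the test. Mrps18c encodes bS18m, which in bacteria pairs with bS6 on the platform of the small subunit. The stiff ECM samples of Mrps18c read 2092, 2955 and 2597, the soft ECM samples 2088, 1954 and 1574 and the normal samples 1916, 2131 and 2088. Every stiff ECM sample was above the brightest soft ECM sample, replicate 1 of both by a narrow margin, and the log2 fold change was 0.44 (SE 0.14, adjusted p = 0.125). Mrpl18 read 0.22 (SE 0.08, adjusted p = 0.176), and the dim probes of Mrpl21 and Mrpl19 read 0.50 (SE 0.16, adjusted p = 0.119) and 0.22 (SE 0.20, adjusted p = 0.528).

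**Figure D1:**
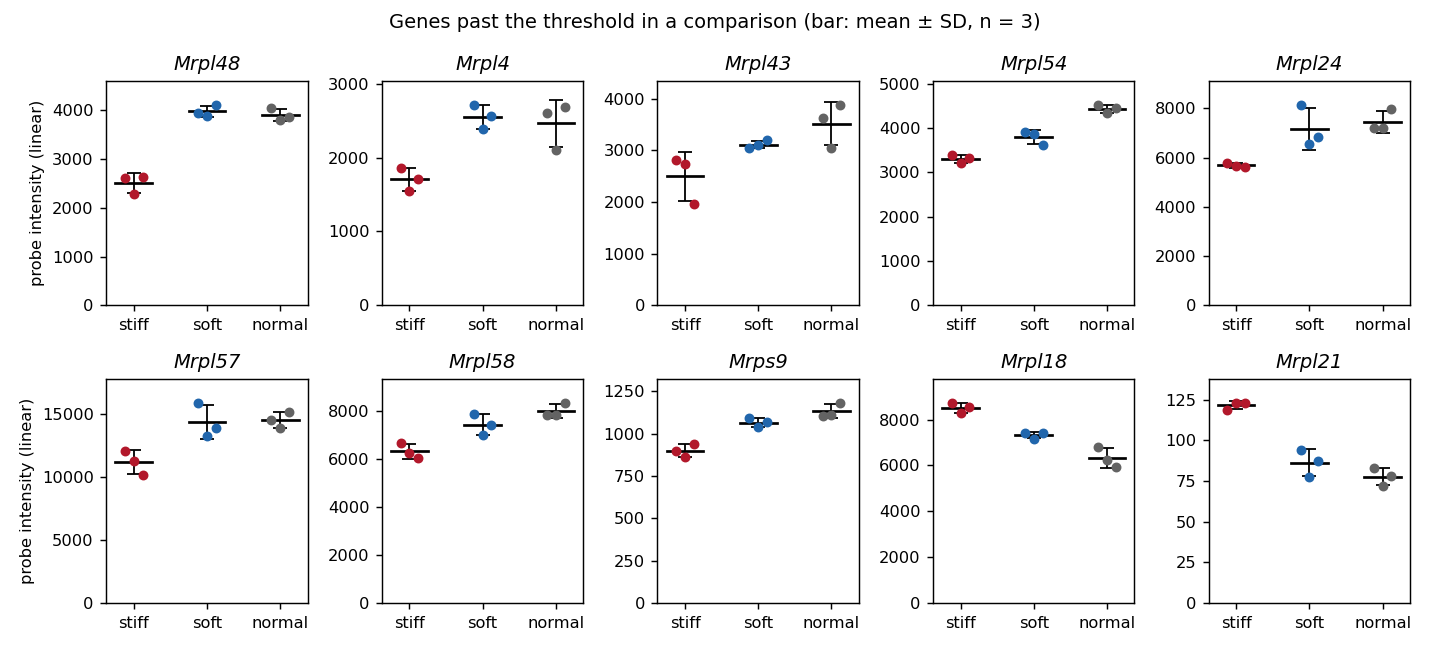
Intensity (linear scale from 0) of the 10 genes that passed in any comparison, with a point per sample and the mean ± SD of 3 samples for stiff ECM, soft ECM and normal from left to right. The stiff ECM samples lie below the normal samples for 8 of the genes, and they are higher for Mrpl18 and Mrpl21.

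Against normal, stiff ECM showed 8 lower and 2 higher genes. The lower ones were Mrpl48, Mrpl4, Mrpl43, Mrpl54, Mrpl24, Mrpl57, Mrpl58 and Mrps9, and the higher ones Mrpl21 and Mrpl18. Of all probes 5.14% passed as lower and 4.8% as higher, and of the 6073 pooled nearest probes 8.78% and 3.82%, beside 11.6% and 2.90% of the 69 genes. The median log2 fold change was -0.10, with 47 genes below 0, but 0.014 under quantile and 0.023 under loess normalization, and over all tested probes it was 0.09.

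Of the 8 lower genes, 5 encode large subunit proteins listed as mitochondria-specific. For Mrpl54 the probe gave 3391, 3207 and 3328 on stiff ECM, 3903, 3873 and 3609.9 on soft ECM and 4520.0, 4342 and 4449.5 in normal. The 3 groups did not overlap, with soft ECM between the others, and the log2 fold change against normal was -0.42 (SE 0.08, adjusted p = 0.0142) for stiff ECM and -0.23 (SE 0.08, adjusted p = 0.152) for soft ECM. Mrpl57, a short basic protein, had the second brightest probe of the set. Intensities were 12124, 11268 and 10208 on stiff ECM, 15931, 13313 and 13926 on soft ECM and 14581, 13921 and 15188 in normal. All stiff ECM samples were below the other 6, with a log2 fold change of -0.38 (SE 0.10, adjusted p = 0.0381) against normal. Mrpl52, the next brightest, read 0.14 (SE 0.11, adjusted p = 0.41) against normal, with stiff ECM samples at 11958, 14976 and 11652 and normal samples at 11570.1, 10927 and 12295, which overlapped. A second probe of Mrpl57, at a mean of 328 and thus just at the olfactory gauge, read the other way at 0.41 (SE 0.15, adjusted p = 0.104).

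Mrpl58 encodes a peptidyl-tRNA hydrolase that can free stalled mitochondrial ribosomes and is also built into the large subunit. Mrpl58 measured 6671, 6252 and 6024 on stiff ECM, against 7879.7, 7008 and 7423 on soft ECM and 7831, 7840.1 and 8346 in normal. Stiff ECM lay below both other groups, at -0.34 (SE 0.09, adjusted p = 0.0334) against normal. Mrpl43 was at the threshold itself. The stiff ECM samples of Mrpl43 read 2816, 2729 and 1952, the soft ECM samples 3049.9, 3093 and 3190.2 and the normal samples 3630.4, 3048 and 3875. Stiff ECM replicate 3 was the lowest sample, and the log2 fold change against normal was -0.51 (SE 0.14, adjusted p = 0.04999).

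Among proteins with bacterial relatives, Mrpl24 and Mrps9 were also lower than in normal. Mrpl24 encodes uL24m, placed at the tunnel exit in bacteria. For Mrpl24 the probe gave 5801, 5649 and 5600.1 on stiff ECM, 8136, 6554 and 6824 on soft ECM and 7186, 7209 and 7961 in normal. Values on stiff ECM were close together and below the rest, at -0.39 (SE 0.10, adjusted p = 0.0355). Mrps9 encodes uS9m, whose bacterial counterpart touches the tRNA in the P site, and was the only small subunit gene that passed. Intensities were 899, 864 and 937 on stiff ECM, 1090.5, 1037 and 1071 on soft ECM and 1108, 1113 and 1183 in normal. Stiff ECM lay below both groups, at -0.33 (SE 0.09, adjusted p = 0.0457).

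The 2 higher genes both belong to the bacterial core of the large subunit. Mrpl18 encodes uL18m, which in bacteria binds 5S ribosomal RNA. Mrpl18 measured 8731, 8268 and 8526 on stiff ECM, against 7413, 7170.1 and 7395 on soft ECM and 6821, 6218 and 5929 in normal. The groups did not overlap, with soft ECM in between, and the log2 fold change against normal was 0.43 (SE 0.08, adjusted p = 0.0147) for stiff ECM and 0.21 (SE 0.08, adjusted p = 0.184) for soft ECM. Mrpl21 rests on a probe within the background range. The stiff ECM samples of Mrpl21 read 119, 123 and 123, the soft ECM samples 94.2, 77.3 and 87.3 and the normal samples 82.7, 71.9 and 78.1. Stiff ECM stood above the other 6, at 0.65 (SE 0.16, adjusted p = 0.0302) against normal, while the median of the 200 probes nearest to it in intensity was 0.22.

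Outside the passing genes, Mrps6 and Mrps18c, neighbours in the bacterial small subunit, read 0.33 (SE 0.14, adjusted p = 0.142) and 0.30 (SE 0.14, adjusted p = 0.181) on stiff ECM against normal, and Mrpl27 -0.45 (SE 0.17, adjusted p = 0.111). For Mrps6 the probe gave 11999, 12164 and 11658 on stiff ECM, 14418, 9371 and 11710.4 on soft ECM and 10048, 8607 and 9956 in normal. In Mrps6 the stiff ECM samples were above normal, and the soft ECM samples spanned both groups. When any 1 of the 9 samples was left out, 1 to 6 genes passed as lower against normal and 0 to 2 as higher. The fewest lower ones came without stiff ECM replicate 2. Calls over all probes fell there as well, from 1281 to 287 as lower and from 1197 to 254 as higher. Over the alternatives run, Mrpl48 passed against normal in 22 of 23, Mrpl54 in 18, Mrpl18 in 17 and Mrpl4 in 16, Mrpl21 in 9 of 21, and the other 5 genes in 7 to 11 of 23.

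Soft ECM against normal gave no passing member in either direction (limma, adjusted p under 0.05), where 3.21% of all probes passed as lower and 0.493% as higher. At an unadjusted p under 0.05, 4 members (5.80%) were higher and 1 (1.45%) lower, against 4.6% and 15.3% of all probes and 3.61% and 21.9% of the pooled nearest probes. Under both quantile and loess normalization 4 members passed as higher, with a median of 0.19, and over all probes the calls were 542 higher and 538 lower under quantile normalization, against 123 higher and 801 lower as deposited. The median of the deposited values was 0.06, with 41 of 69 genes above 0, while that of all tested probes was -0.09. The upper end was held by Mrpl20, Mrps6, Mrps33 and Mrpl38. Mrpl20, whose bacterial counterpart is needed early in the assembly of the large subunit, read 0.33 (SE 0.10, adjusted p = 0.108). Intensities were 11554, 11552 and 9976 on stiff ECM, 13447, 12148 and 13376 on soft ECM and 10374, 9244 and 11472 in normal. Its soft ECM samples were all above the normal ones. Mrpl38, a mitochondria-specific protein of the central protuberance, read 0.26 (SE 0.11, adjusted p = 0.197), and Mrps6 and the dim Mrps33 read 0.29 and 0.28. The lower end was held by the dim Mrpl19 and Mrps14, at -0.43 and -0.28, and by Mrpl9 and Mrpl54, both at -0.23.

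Fold changes on this array moved with probe intensity, so each gene was set beside the 200 other probes nearest to it in mean log2 intensity. The median of those neighbours was -0.01 for stiff ECM minus soft ECM, -0.14 for stiff ECM minus normal and -0.12 for soft ECM minus normal. After taking it away, members stood at a median of -0.17 on stiff ECM against soft ECM, with 56 of 69 below their neighbours. On stiff ECM against normal the median was 0.03, with 31 below and 38 above. On soft ECM against normal it was 0.18, with 63 above and 6 below. Set against probes of like intensity, the members were above them on soft ECM and near them in the comparison of stiff ECM with normal.

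**Figure D2:**
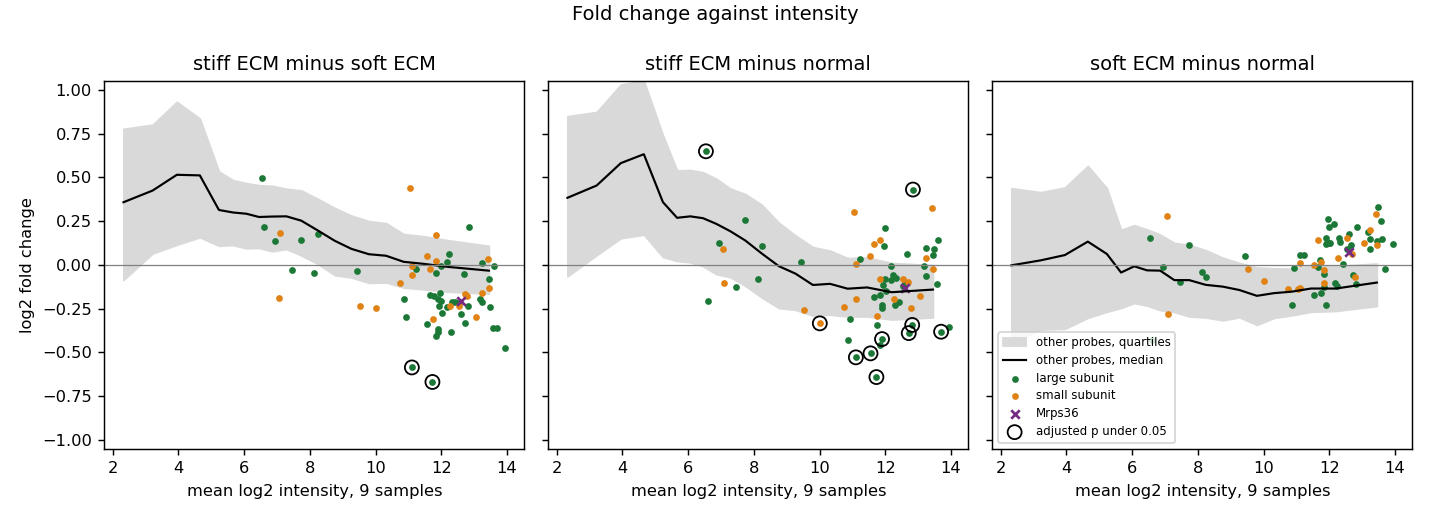
Log2 fold change against mean log2 intensity for the 69 genes in each comparison, over the median and quartiles of all other tested probes in 20 intensity bins, with circles at adjusted p under 0.05. Most members are bright and lie below the line in stiff ECM minus soft ECM (56 of 69 below their neighbours) and above it in soft ECM minus normal (63 of 69 above).

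The same measure by sample gives the spread over replicates. The median deviation of the 69 genes from their mean over the 9 samples, less that of the neighbours, was -0.07, -0.08 and -0.07 on stiff ECM, 0.15, 0.08 and 0.09 on soft ECM, and 0.01, -0.08 and -0.07 in normal. The soft ECM samples were above the other 6, and stiff ECM and normal overlapped. Without taking the neighbours away the medians were -0.01, -0.07 and -0.19 on stiff ECM, 0.14, -0.03 and 0.06 on soft ECM, and -0.05, -0.06 and 0.13 in normal, so that all 3 groups overlapped. Soft ECM replicate 1 held the highest value of all 9 samples in 30 of 69 genes and stiff ECM replicate 3 the lowest in 28. Normal replicate 3 was the highest in 19, and the nearest probes also deviated upwards there, by 0.21. With soft ECM replicate 1 left out, the median fold change of stiff ECM minus soft ECM was -0.13, and without stiff ECM replicate 3 it was also -0.13.

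**Figure D3:**
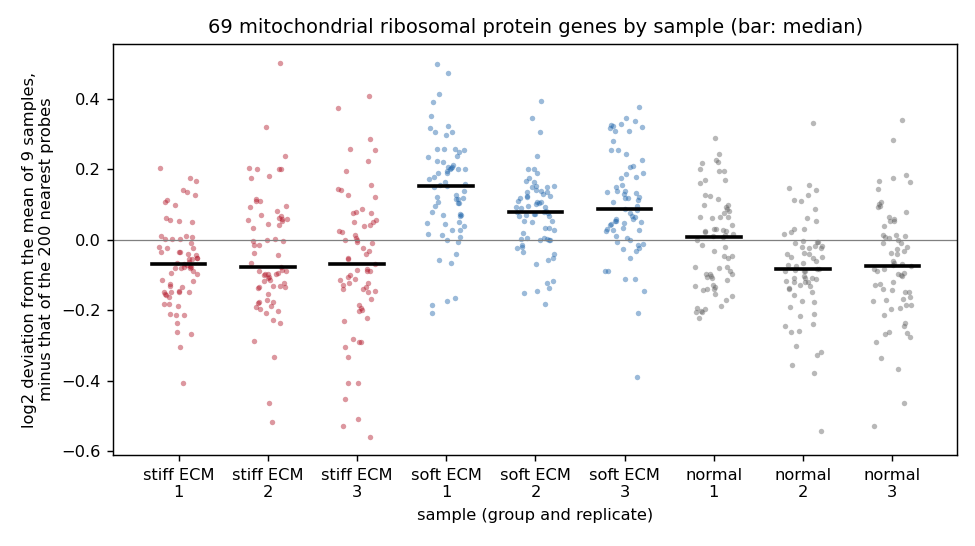
Deviation of each of the 69 genes from its mean over the 9 samples (log2), less the median deviation of its 200 nearest probes, for the stiff ECM, soft ECM and normal samples from left to right, with a bar at the median. The bars are at 0.08 to 0.15 on soft ECM and at -0.08 to 0.01 in the other 6 samples.

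Group means were also ranked for each gene. Stiff ECM had the lowest mean in 42 of the 69 genes, normal in 17 and soft ECM in 10. Soft ECM had the highest mean in 36, normal in 23 and stiff ECM in 10. The commonest order, from low to high, was stiff ECM, normal, soft ECM, in 24 genes, followed by stiff ECM, soft ECM, normal, in 18.

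By place in the ribosome, stiff ECM minus soft ECM had a median of -0.20 over the 47 large subunit genes, with 38 below 0, and of -0.13 over the 21 small subunit genes, with 15 below 0. The 26 large subunit genes listed as bacterial type had a median of -0.19 and the 21 listed as mitochondria-specific -0.20. In the small subunit the 13 genes listed as bacterial type had a median of -0.16 and the 8 listed as mitochondria-specific -0.04. A protein listed as mitochondria-specific may still have a bacterial relative. Of all probes 6.39% lay lower on stiff ECM without overlap with soft ECM, and of the 6073 pooled nearest probes 10.4%. Stiff ECM and soft ECM samples did not overlap, stiff ECM being lower, in 20 large subunit genes (42.6%) and 7 small subunit genes (33.3%). Within the small subunit these were Mrps7, Mrps9, Mrps10, Mrps17, Mrps24 and Mrps28, which have bacterial relatives, and Mrps34, which does not. No difference between these subsets was tested.

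**Figure D4:**
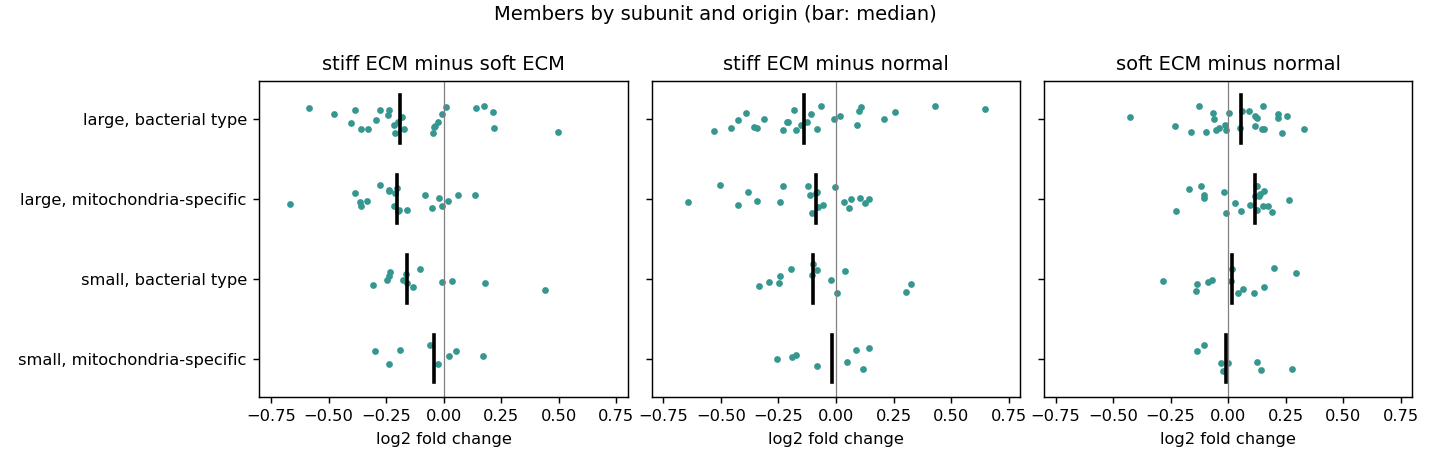
Log2 fold change of 68 genes by subunit and by whether the protein is listed as bacterial type or mitochondria-specific, with a bar at the median, for each comparison. In stiff ECM minus soft ECM the 4 medians are between -0.20 and -0.04.

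None of the 3 measured proteins of the stalk that recruits translation factors passed in this comparison (0 at an unadjusted p under 0.05 too), Mrpl10 at -0.18 (SE 0.14, adjusted p = 0.461), Mrpl11 at -0.05 (SE 0.15, adjusted p = 0.879) and Mrpl12, which is also known to bind the mitochondrial RNA polymerase, at -0.01 (SE 0.17, adjusted p = 0.987). Among 11 genes in which inherited defects are known in human patients, the median was -0.16 with 9 below 0, and 1, Mrpl24, passed as lower against normal. Mrps34, of that kind, read -0.30 (SE 0.11, adjusted p = 0.154) on stiff ECM against soft ECM, and Mrps22 -0.02 (SE 0.12, adjusted p = 0.919). Mrps36 of the 2-oxoglutarate dehydrogenase complex read -0.21 (SE 0.10, adjusted p = 0.254), close to the median of the ribosomal proteins.

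The 60 genes above the olfactory gauge had a median of -0.20 in stiff ECM minus soft ECM, with 51 below 0. The 9 genes at or below it had a median of 0.14, with 3 below 0, and the other dim probes of the array also leaned upwards on stiff ECM, as the plot against intensity shows. Of 7 genes with more than 1 usable probe, 3 had probes of the same sign in this comparison. The others were Mrpl17 (-0.04 and 0.25), Mrpl41, Mrpl51 (-0.28 and 0.18) and Mrpl57, and in each the dimmer probe was the one above 0. A further, dim probe of Mrps10, at a mean of 103, read -1.17 (SE 0.23, adjusted p = 0.0145) on stiff ECM and -0.93 (SE 0.23, adjusted p = 0.0483) on soft ECM against normal, whereas the brightest probe of Mrps10 read -0.20 and 0.04.

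Other genes of mitochondrial gene expression were counted beside the ribosomal proteins. None of these 81 genes passed in limma in stiff ECM minus soft ECM or in soft ECM minus normal. In stiff ECM minus soft ECM 14 had an unadjusted p under 0.05, 6 higher and 8 lower, beside 17.5% and 4.12% of all probes. In soft ECM minus normal 0 were higher and 3 lower at that level, beside 4.6% and 15.3% of all probes. Of 26 genes for assembly of the mitochondrial ribosome, 17 were below 0 on stiff ECM against soft ECM, with a median of -0.06, and 1 passed as lower against normal, the ribosomal RNA methyltransferase Mrm3, at -0.50 (SE 0.11, adjusted p = 0.0252). The 14 translation factors had a median of -0.07, and none passed against normal. At an unadjusted p under 0.05, 1 was higher and 0 lower on stiff ECM against normal, beside 17.1% and 12.9% of all probes. The 18 mitochondrial tRNA synthetases had a median of -0.03, and Tars2, for threonine, was lower than in normal at -0.55 (SE 0.12, adjusted p = 0.0241). The 19 genes for mitochondrial DNA upkeep and transcription had a median of -0.13, and 2 were lower than in normal, the DNA polymerase Polg at -0.57 (SE 0.15, adjusted p = 0.0381) and the transcription elongation factor Tefm at -0.46 (SE 0.12, adjusted p = 0.0368). In all, 4 of the 81 genes passed against normal, each as lower, where 5.14% of all probes passed as lower. By list that was 3.85% of the assembly, 5.56% of the synthetase and 10.5% of the mitochondrial DNA genes. The 4 mitochondrial ribosomal proteins with other symbols had a median of -0.11.

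The nuclear-encoded subunits of the respiratory chain and ATP synthase had values like those of the ribosomal proteins, with a median of -0.21 on stiff ECM against soft ECM and 51 of 64 below 0. Against normal, 7 of the 64 passed as lower on stiff ECM, Ndufa3, Ndufa11, Ndufa13, Ndufs5, Uqcrq, Cox4i1 and Cox6a1, and 1 as higher, the complex II anchor Sdhd. These were 10.9% and 1.56% of the 64, beside 5.14% and 4.8% of all probes. Of the 6073 pooled nearest probes of the 69 genes, 8.78% and 3.82% passed. The 43 cytosolic ribosomal protein genes had a median of 0.01 on stiff ECM against soft ECM, with 24 above and 19 below 0, and none passed in any comparison in limma. At an unadjusted p under 0.05, 4 of them were higher and 2 lower on stiff ECM against soft ECM, beside 17.5% and 4.12% of all probes. On stiff ECM against normal 4 were higher and 9 lower, beside 17.1% and 12.9% of all probes. On soft ECM against normal 0 were higher and 7 lower, beside 4.6% and 15.3% of all probes. The differences between lists were not tested. The muscle marker sums given above also ran lower on stiff ECM than on soft ECM, with no overlap, as did the deviation of the 69 genes less that of their nearest probes. The normal samples differed in this respect. Their muscle sums overlapped those of soft ECM, whereas their deviation of the 69 genes overlapped that of stiff ECM. Any link between these measures was not tested.

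**Figure D5:**
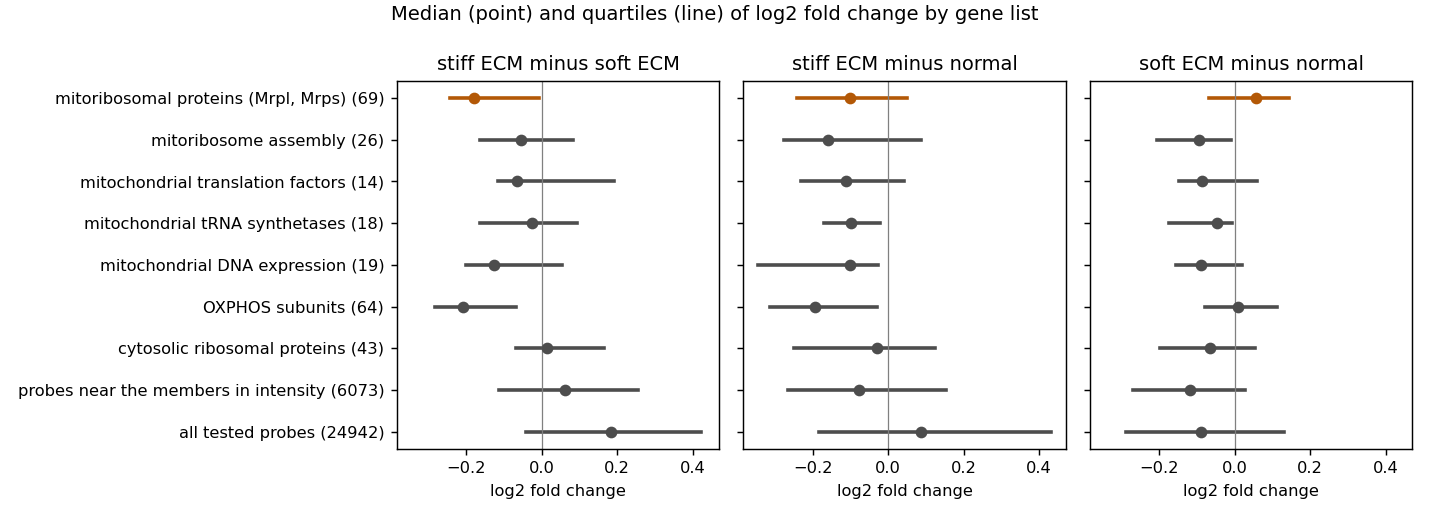
Median (point) and quartiles (line) of log2 fold change for the 69 genes, for other mitochondrial lists, for cytosolic ribosomal proteins, for the pooled 200 nearest probes of each member and for all tested probes, with the number of genes or probes in brackets. In stiff ECM minus soft ECM the 69 genes and the OXPHOS subunits, those of the respiratory chain and ATP synthase, have the lowest medians shown, -0.18 and -0.21.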

How the data were processed

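Cy5-labelled amplified RNA was hybridised by the authors to 2 Phalanx Mouse OneArray arrays per sample, and the deposited intensity values, per the study's methods, had flagged spots and control probes removed and were scaled by the median and averaged in Rosetta Resolver (version not given in the sources used here). Values are linear, from -8.27 to 70058.3, which shows that a background had been subtracted. The number of samples, 3 per group, limits the precision.

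Probes were named through the platform table (21876 with 1 symbol, 4547 with none). The 24942 probes above 0 in all 9 samples were taken to log2 without further scaling, and 1481 were left out. Group means were fitted with limma 3.58.1 (lmFit, eBayes with an intensity trend) in R 4.3.3, with Benjamini-Hochberg adjustment over all tested probes and a threshold of 0.05. The error-weighted model that the study used for its arrays was not run. The methods' t-test named below is the Student's t-test of its general statistics, run on log2 values with the same adjustment. The script was tested on simulated data. Tables and figures were made in Python 3.11.15 with matplotlib 3.10.9. Replicate numbers were not used to pair samples.

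Members and gene lists were chosen with earlier results of these data known. Named genes are those past the threshold in any comparison, the 4 highest and 4 lowest fold changes of each, the 3 brightest and 3 dimmest, Mrpl41, and genes whose probes differ in sign where the brightest passed. Further genes (Mrpl2, Mrpl22, Mrpl40, Mrpl17, Mrpl51, the stalk proteins, Mrps22, Mrps34 and Mrps36) were named for their role, their value or their second probe, after their values were seen. Alternatives covered normalization, intensity filters, a floor or offset, the variance model, the choice of probe and each sample left out.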

Additional observations from a re-analysis of the deposited data

How the results depend on the processing

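Against soft ECM, 2 members were lower and 0 higher on stiff ECM. The lower count was 8 under quantile normalization, 16 under median centring, 6 under loess, 1 without the intensity trend, 15 with sample weights (whose estimate stopped before it converged), 1 with the replicate block and 0 in the methods' t-test. The higher count was 1 with these 2 groups only and 3 with sample weights. With any 1 sample left out, 0 to 3 were lower and 0 to 1 higher. The median of -0.18 was -0.43 under median centring and stayed below 0 in all alternatives.

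Against normal, 8 members were lower and 2 higher on stiff ECM. The lower count was 5 under quantile normalization, 16 under median centring, 4 under loess, 2 without the trend, 3 with 2 groups only, 1 with sample weights, 3 with the replicate block and 0 in the methods' t-test. The higher count was 0 under median centring, with sample weights and in the methods' t-test, and 1 in the upper 50% of probes, above the olfactory percentile, with 2 groups only and with the replicate block. Leaving out single samples gave 1 to 6 lower and 0 to 2 higher. The median of -0.10 was 0.014 under quantile normalization, -0.26 under median centring and 0.023 under loess. Over all 24942 probes, stiff ECM minus normal gave 1281 lower and 1197 higher. These were 2093 and 1981 under quantile normalization, 3836 and 1725 under median centring and 1981 and 1956 under loess.

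For soft ECM minus normal, 0 and 0 members passed, but 4 were higher under both quantile normalization and loess, and 0 to 1 lower with single samples left out. The median of 0.06 was 0.19 under quantile normalization and 0.19 under loess. The replicate block called 0 here. Its samples share only a number, since deviations of same-numbered samples correlated at -0.22 to 0.13.

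Single values that changed sign were Mrpl18 in stiff ECM minus soft ECM under median centring (-0.031), Mrpl19 under quantile normalization, median centring and loess (-0.050, -0.028 and -0.050), Mrpl41 as the mean of all its probes (0.32), and Mrpl57 in stiff ECM minus normal as the mean of its probes (0.016). Mrpl48 passed against soft ECM in 20 of 23 alternatives (adjusted p = 0.0007 to 0.098 in limma and the methods' t-test) and Mrpl4 in 14 of 23. Over all probes, stiff ECM minus soft ECM gave 337 higher and 104 lower, but 469 and 700 under quantile normalization, 206 and 1274 under median centring and 421 and 565 under loess. The cause of these changes was not tested.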
